A study of Homo sapiens with 6 samples.

Results

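The annexins, the ESCRT proteins and the partners that work with them in resealing a torn plasma membrane are described here, at the level of their transcripts. Members were chosen by name: every gene whose symbol was ANXA and a number, every gene whose symbol was CHMP with its number and letter, and 20 named partners. Of the 29435 genes in the deposited table, 41 were members. They comprised 11 annexins, 3 annexin-binding S100 genes, 2 genes for ALIX and its partner ALG-2, 5 ESCRT-I genes, 12 ESCRT-III genes, 3 genes of the VPS4 complex, 3 calpain genes, and the 2 genes CAV1 and MYOF. TRIM72, the remaining named partner, was not analysed here.

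When a plasma membrane is breached, calcium flows in, annexins bind the exposed acidic phospholipids at the wound edge, and S100 proteins link pairs of annexins together. ALG-2 senses the same calcium and recruits ALIX, which gathers ESCRT-III proteins into filaments that pinch off the damaged membrane, and the ATPase VPS4 takes the filaments apart. ESCRT-I feeds the same filaments in endosome sorting and in budding, calpains cut the cytoskeleton below the wound, and caveolin and the ferlin myoferlin act in membrane uptake and fusion.

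Saikosaponin A (SsA) is a triterpenoid saponin, a detergent-like plant glycoside of Bupleurum roots. RNA-seq libraries had been made from cells labelled HepG2, an established human liver cancer line, and the comparison asks how SsA changed their transcripts. The treated cells had received SsA at 20 µM for 4 h (3 libraries) and the control cells its solvent DMSO for 4 h (3 libraries), with the same line, medium and serum in both groups and no genetic change named. Whether libraries of a group came from different cultures is not stated in the labels, and p-values therefore reflect the spread between these libraries, which may be technical.

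Total counts were 58955482, 69567633 and 64666078 in SsA replicates 1 to 3 and 72162625, 74912492 and 57768359 in DMSO replicates 1 to 3. Mitochondrial transcripts took 18.8%, 7.62% and 8.28% of the counts in the SsA libraries and 6.36%, 6.19% and 14.9% in the DMSO libraries, so 1 library of each group (SsA replicate 1 and DMSO replicate 3) stood apart. Most hepatocyte markers of the labelled line were below 1 FPKM, and the identity of the line was not tested. Only listed markers with values in the deposited table were counted, so APOB, TTR, AHSG and HP, also listed, were not. Of 8 secreted hepatocyte proteins measured, 6 (TF, APOA1, APOA2, FGA, FGB and FGG) had mean FPKM below 0.1 in SsA and in DMSO cells, while VTN averaged 5.07 FPKM in SsA cells and 3.46 FPKM in DMSO cells. Of 10 hepatocyte factors and metabolic genes 5, HNF4A among them, were below 0.1 FPKM and 3 were at 1 or above: CPS1 (149 FPKM in SsA cells, 164 in DMSO cells), CEBPA (4.25 in SsA cells, 4.43 in DMSO cells) and FOXA1 (2.03 in SsA cells, 3.51 in DMSO cells). Of 7 other epithelial markers 5, EPCAM and CDH1 among them, were below 0.1 FPKM. KRT8 (295 FPKM in SsA cells, 257 in DMSO cells) and KRT18 (450.0 in SsA cells, 382 in DMSO cells) were abundant. Of 9 fibroblast and stellate markers 2 were below 0.1 FPKM and 6 at 1 or above. VIM (135 FPKM in SsA cells, 106 in DMSO cells) and COL3A1 (26.4 in SsA cells, 29.4 in DMSO cells) were the highest of these. In bulk RNA, fewer cells of a type and less RNA per cell cannot be told apart, for any gene below.

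Upstream DNA is shown for 4 members that the results turn on: ANXA1 and ANXA2, both higher after SsA, the ESCRT-III gene CHMP2A, also higher, and MYOF, the member that fell most. The stretches come from RefSeq on the build GRCh38.p14, run 5′ to 3′ on the gene's strand, start 250 bases before the RefSeq start site, and stop at that site or earlier, where an annotated exon begins. They are ANXA1 at chr9:73151615-73151756, plus strand, ANXA2 at chr15:60398044-60398236, minus strand, CHMP2A at chr19:58555125-58555355, minus strand, and MYOF at chr10:93482335-93482584, minus strand. Capitals mark matches, on either strand, to the AP-1 motif TGANTCA, the cAMP response element TGACGTCA, the CCAAT box CCAAT or the TATA box TATAAA.
ANXA1: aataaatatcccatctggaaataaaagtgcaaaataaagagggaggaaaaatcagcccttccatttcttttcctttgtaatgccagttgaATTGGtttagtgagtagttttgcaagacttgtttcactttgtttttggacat
ANXA2: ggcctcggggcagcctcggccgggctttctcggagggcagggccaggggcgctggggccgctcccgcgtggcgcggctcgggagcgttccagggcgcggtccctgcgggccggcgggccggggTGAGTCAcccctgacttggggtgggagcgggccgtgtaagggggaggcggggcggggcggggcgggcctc
CHMP2A: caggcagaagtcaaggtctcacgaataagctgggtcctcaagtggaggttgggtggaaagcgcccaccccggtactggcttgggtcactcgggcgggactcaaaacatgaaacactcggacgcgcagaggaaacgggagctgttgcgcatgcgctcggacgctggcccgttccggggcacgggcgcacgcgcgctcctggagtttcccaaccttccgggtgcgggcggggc
MYOF: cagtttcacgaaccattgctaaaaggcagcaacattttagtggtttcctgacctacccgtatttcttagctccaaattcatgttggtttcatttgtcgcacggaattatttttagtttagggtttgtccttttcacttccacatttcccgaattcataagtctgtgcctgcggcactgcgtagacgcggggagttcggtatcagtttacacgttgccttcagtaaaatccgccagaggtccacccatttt
The ANXA1 stretch held a CCAAT box read on the other strand, 160 bases before the start site, and the ANXA2 stretch an AP-1 match 127 bases before it. The stretches of CHMP2A and MYOF held none of these letters. The ANXA2 start site in RefSeq lay 4897 bases inside the gene's outer limit in the deposited table. Windows of 250 bases were found for 33 of the 41 members. AP-1 letters stood in 3 of those 33 (ANXA2, CAPN2 and IST1), beside 6.57% of all 35116 windows, and the cAMP response element in 2 (CHMP1B and VPS37B), beside 1.65% of all windows. The CCAAT box stood in 10 of the 33 members, beside 32.0% of all windows, and the TATA box in 4 (ANXA1, ANXA2, ANXA10 and ANXA11), beside 10.7%. Such matches describe letters in a window and show no binding.

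**Figure D1:**
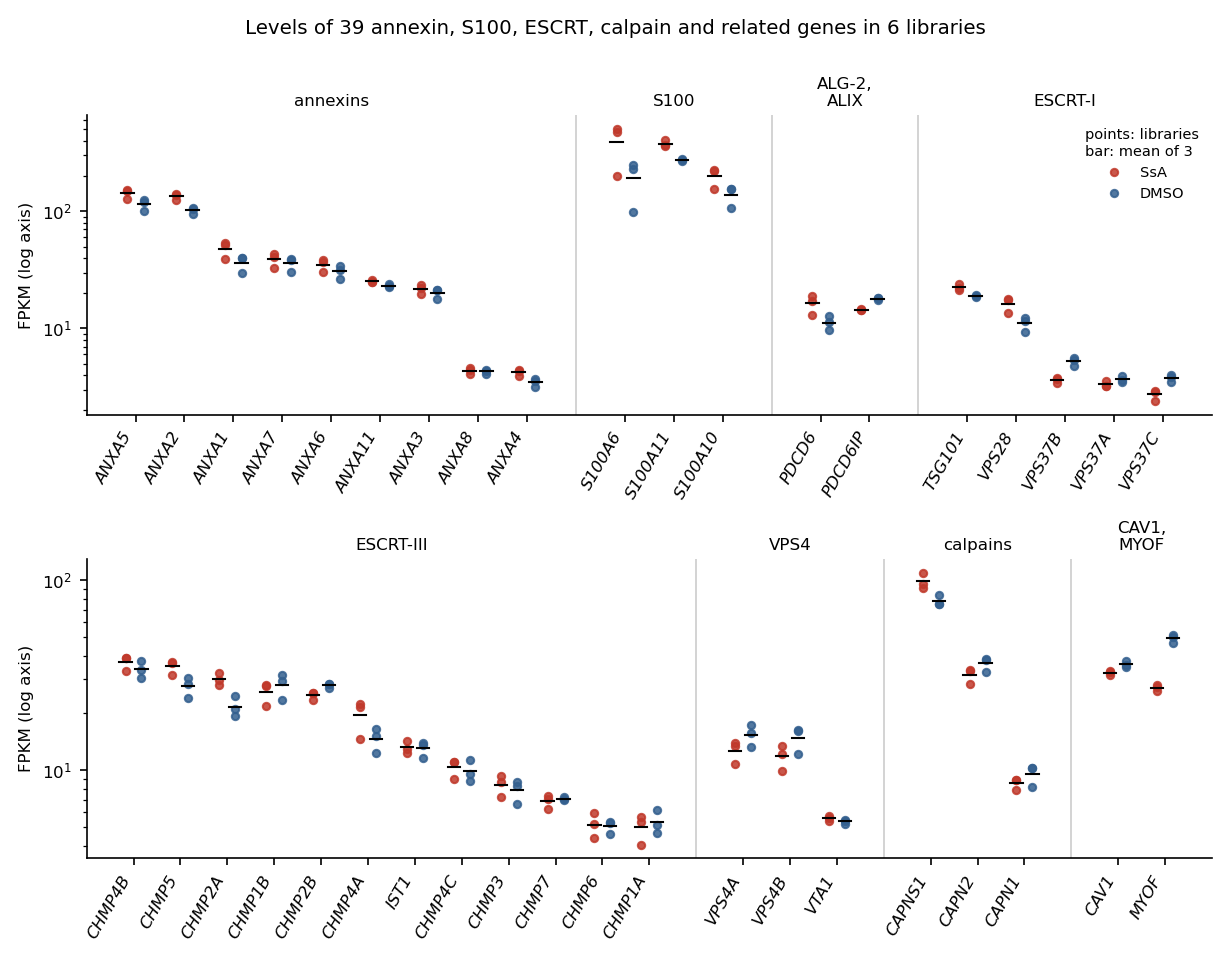
Deposited FPKM of the 39 tested members in each library (y axis, log scale; points are libraries, SsA left and DMSO right of each gene, bars are the mean of 3), grouped by role. S100A6, S100A11, ANXA5 and ANXA2 are the most abundant of their classes, VPS37C and VPS37A are among the lowest, and MYOF is the gene whose SsA points lie farthest below its DMSO points.

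By summed FPKM, the annexin-binding S100 genes and the annexins were the most abundant classes. Summed FPKM of the 3 S100 genes was 756, 1055 and 1098 in SsA replicates 1 to 3 and 655, 672 and 484 in DMSO replicates 1 to 3. For the annexins the sums were 408, 482 and 479 FPKM in the SsA libraries and 389, 398 and 330 FPKM in the DMSO libraries. These sums were higher in every SsA library than in any DMSO library, but total FPKM also differed between libraries. As a share of all FPKM the S100 genes took 0.195%, 0.349% and 0.357% in the SsA libraries and 0.246%, 0.251% and 0.146% in the DMSO libraries, and the annexins 0.105%, 0.160% and 0.155% in the SsA libraries and 0.146%, 0.148% and 0.0993% in the DMSO libraries. The groups overlap in both shares. The 12 ESCRT-III genes together reached 196, 233 and 235 FPKM in the SsA libraries and 212, 214 and 180 FPKM in the DMSO libraries, which overlap. The VPS4 complex summed to 26.1, 33.1 and 31.1 FPKM in SsA libraries and 37.0, 39.0 and 30.7 FPKM in DMSO libraries, overlapping as well.

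After 4 h of SsA, transcripts of the annexins and their S100 partners were mostly higher by TMM-scaled counts. On the TPM scale the median of all genes tested was negative, and 4 annexins turned negative too. ESCRT-III was split between genes that were higher and genes that were not called, ESCRT-I went both ways, and no gene of the VPS4 complex was called. A gene was tested when 3 or more libraries had an FPKM of 1 or above, and called when edgeR's quasi-likelihood test gave a Benjamini-Hochberg adjusted p below 0.05 over all 11427 genes tested. Of the 41 members 39 were tested, 21 were called higher, 3 lower and 15 were not called. Among all genes tested 25.9% were called higher and 27.9% lower, so calls were common everywhere. The median log2 fold change, SsA over DMSO, was 0.26 over the 39 members and 0.027 over all genes tested. In 28 of the 39 members the 3 SsA libraries did not overlap the 3 DMSO libraries in scaled counts, as they did not in 62.8% of all genes tested.

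Annexins had 8 of 9 tested genes called higher, 0 lower and a median log2 fold change of 0.36, whereas ESCRT-I, ESCRT-III and the VPS4 complex together had 8 of 20 called higher, 2 lower, 10 not called and a median of 0.18. On the log2(TPM + 1) scale the median of all genes shifted to -0.31, and there 4 of the 8 called annexins (ANXA3, ANXA6, ANXA7 and ANXA11) and 3 of the 8 called ESCRT genes (CHMP3, CHMP4B and IST1) turned negative. Taken relative to that shift, all 9 tested annexins and 13 of the 20 ESCRT and VPS4 genes were positive, with medians of 0.31 and 0.14. By construction 0 is then the median of all genes tested, so these values are no separate check of the rise. Without that recentring, 0 members were called higher on the TPM scale. No test compared the classes with each other.

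**Figure D2:**
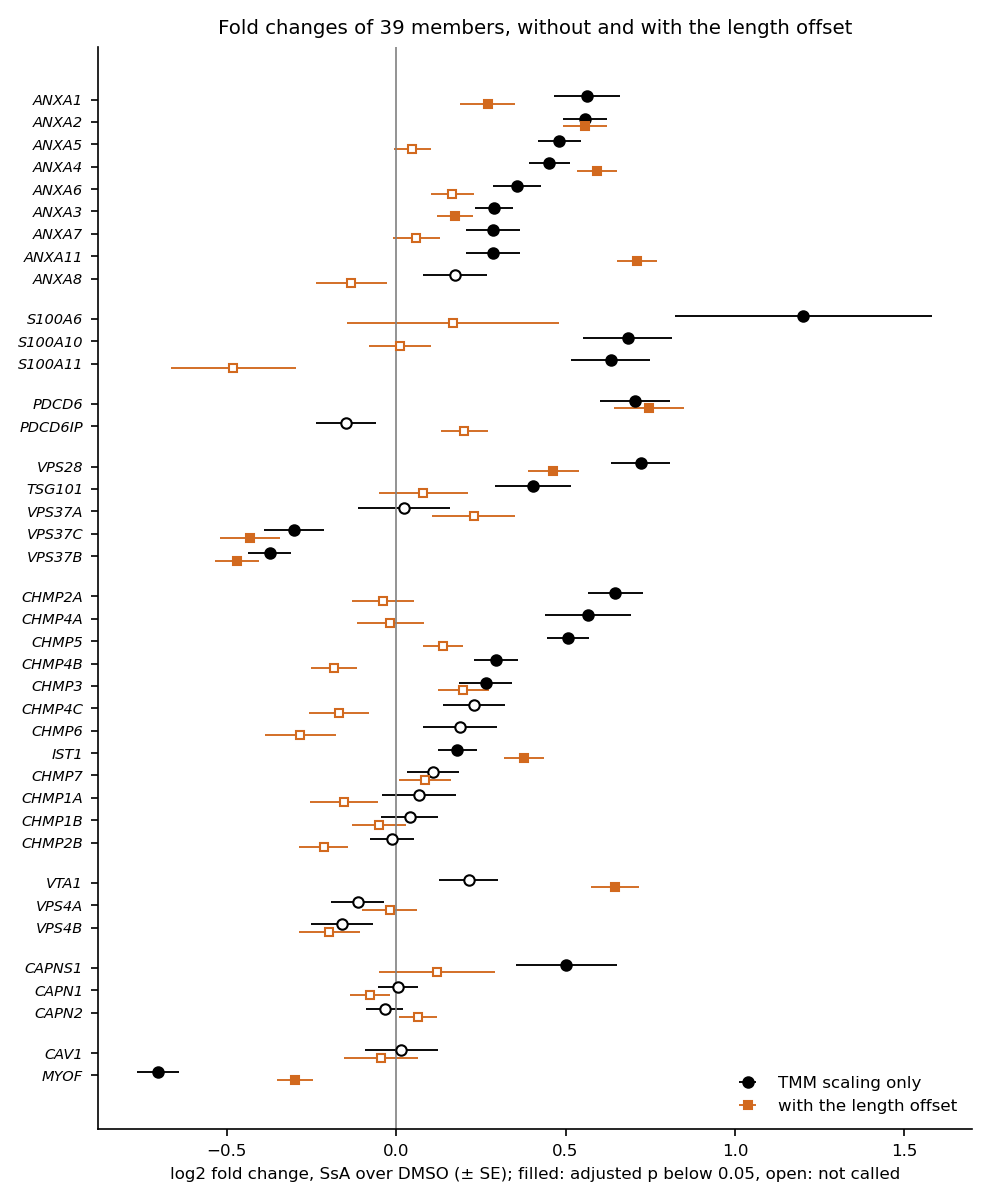
Log2 fold change, SsA over DMSO, of the 39 tested members by role (x axis; lines are ± SE; black circles with TMM scaling only, orange squares with the transcript-length offset; filled symbols have adjusted p below 0.05). Black circles of the annexins and S100 genes lie right of 0 (ANXA3, ANXA6, ANXA7 and ANXA11 do not on the TPM scale), and 21 members are filled on the right and 3 on the left, against 9 and 3 once length is taken into account.

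Fold changes across the whole table moved with transcript length. Over 10002 protein-coding genes tested, the log2 fold change fell by 0.43 per doubling of the longest annotated transcript (Spearman -0.72), and over the 39 members Spearman was -0.56 with lengths of 594 to 7028 nt. What made length and fold change move together was not tested. For that reason each member is also given a length-corrected value, in which a trend fitted over the protein-coding genes was taken off. So corrected, 15.2% of all genes tested were called higher and 16.8% lower, and of the 39 members 9 were called higher, 3 lower and 27 not called, with a median of 0.059. By this value annexins had 5 of 9 called higher with a median of 0.17, and the ESCRT-I, ESCRT-III and VPS4 genes 3 of 20 called higher and 2 lower with a median of -0.029. The longest transcript need not be the one these cells use. With the annotated principal transcript in its place, 8 members were called higher and 3 lower, beside 13.3% and 15.6% of all genes tested, and 4 members (ANXA1, ANXA4, ANXA11 and IST1) were called higher without any length correction and with both.

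**Figure D3:**
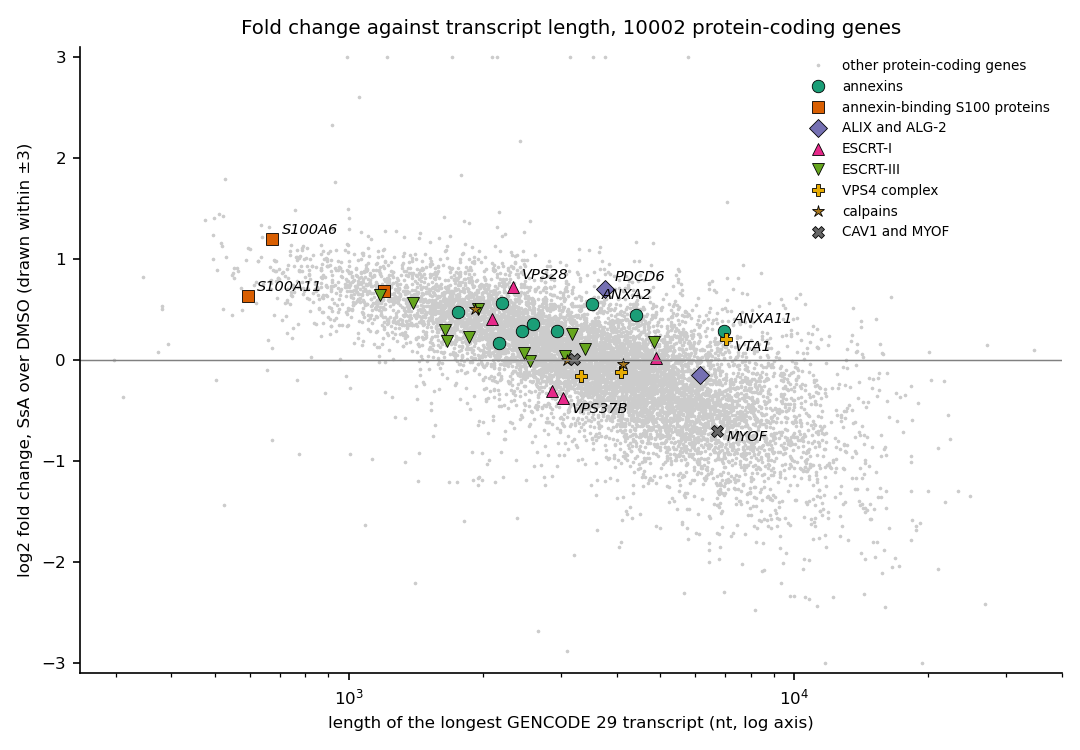
Log2 fold change, SsA over DMSO (y axis, drawn within ±3), against the length of the longest GENCODE 29 transcript (x axis, log scale) for 10002 protein-coding genes, with members in colour by role. The cloud slopes down by 0.43 per doubling of length, S100A6 and S100A11 sit at its short, high end, ANXA11 and VTA1 lie above it among long transcripts, and VPS37B and MYOF are among the members below 0.

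ANXA2, the annexin that forms a tetramer with S100A10 at the inner face of the membrane, was the most abundant annexin by scaled counts. It lies at chr15:60347134-60402883 (GRCh38) and had 1472, 1451 and 1454 CPM (counts scaled to a common library size by TMM) in SsA replicates 1 to 3, against 977, 984 and 1014 CPM in DMSO replicates 1 to 3. Every SsA library was well above every DMSO library, with almost no spread inside either group. The mean was 1459 ± 10.9 CPM in SsA cells and 991 ± 19.6 CPM in DMSO cells (SD, n = 3 each), a log2 fold change of 0.56 ± 0.066 (SE; edgeR adjusted p = 0.000691). Corrected with the longest transcript it stayed at 0.56 (edgeR adjusted p = 0.00137), and with the shorter principal transcript it came to 0.20 and was not called (edgeR adjusted p = 0.0859). ANXA2 reads can also match the processed copy ANXA2P2, so its count is uncertain to that extent.

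ANXA1, the glucocorticoid-induced annexin that also caps wound edges, lies at chr9:73151865-73170393 (GRCh38). It had 231, 280 and 277 CPM in SsA libraries and 185, 187 and 162 CPM in DMSO libraries. No SsA library reached down to the DMSO range, although SsA replicate 1 was the lowest of its group and DMSO replicate 3 the lowest of the other. The log2 fold change came to 0.56 ± 0.098 (SE; edgeR adjusted p = 0.00314). The length-corrected value of 0.27 was also called (edgeR adjusted p = 0.0426), as was 0.37 with the principal transcript (edgeR adjusted p = 0.0188).

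ANXA5, which assembles into a lattice over exposed phosphatidylserine, was the most abundant annexin per length, at 143 ± 14.2 FPKM in SsA cells and 115 ± 13.4 FPKM in DMSO cells (SD, n = 3 each). Scaled counts were 495, 519 and 533 CPM in SsA libraries and 366, 385 and 357 CPM in DMSO libraries. All SsA libraries exceeded all DMSO libraries. The log2 fold change came to 0.48 ± 0.064 (SE; edgeR adjusted p = 0.00109), and the length-corrected value of 0.048 was not called (edgeR adjusted p = 0.545).

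ANXA4 and ANXA11 kept their rise through both length corrections. ANXA4, which rolls membrane edges together, had 57.4, 57.1 and 58.6 CPM in SsA libraries, against 42.9, 40.9 and 42.7 CPM in DMSO libraries. Its groups were far apart relative to their spread, with a log2 fold change of 0.45 ± 0.060 (SE; edgeR adjusted p = 0.00107) and length-corrected values of 0.59 and 0.40. ANXA11, a long-transcript annexin that tethers RNA granules to lysosomes, had 285, 258 and 254 CPM in SsA libraries and 213, 206 and 236 CPM in DMSO libraries. These groups did not overlap, and the log2 fold change of 0.29 ± 0.078 (SE; edgeR adjusted p = 0.0193) became 0.71 with the longest and 0.77 with the principal transcript, both called. Without DMSO replicate 1 or DMSO replicate 2, ANXA11 was not called before correction (edgeR adjusted p of 0.073 and 0.0752).

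Smaller rises were called for ANXA6, ANXA3 and ANXA7, each of them slightly negative on the TPM scale. ANXA6, the largest annexin protein, recruited early to membrane tears, had a log2 fold change of 0.36 (edgeR adjusted p = 0.00538) with 221, 246 and 241 CPM in SsA libraries and 181, 195 and 176 CPM in DMSO libraries. ANXA3, another calcium-dependent phospholipid binder, had 129, 128 and 136 CPM in SsA libraries and 108, 109 and 106 CPM in DMSO libraries, a log2 fold change of 0.29 (edgeR adjusted p = 0.00486). ANXA7, which works with ALG-2 in ESCRT-III repair, had 125, 147 and 141 CPM in SsA libraries and 118, 114 and 106 CPM in DMSO libraries, a log2 fold change of 0.29 (edgeR adjusted p = 0.0199). None of these 3 genes overlapped between groups. ANXA7 was not called without SsA replicate 2 or SsA replicate 3 (edgeR adjusted p of 0.0763 and 0.0683), and its length-corrected value was 0.059. ANXA3 kept its call with the longest transcript (0.17) and had -0.077 with the principal one, while ANXA6 was not called with the longest (0.17) and was called with the principal one (0.26).

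ANXA8 was the tested annexin with no call. It had 26.8, 25.9 and 27.0 CPM in SsA libraries and 23.0, 21.4 and 26.4 CPM in DMSO libraries, so DMSO replicate 3 reached into the SsA range. The log2 fold change came to 0.17 ± 0.094 (SE; edgeR adjusted p = 0.159), it was called without DMSO replicate 3 (edgeR adjusted p = 0.0482), and reads may be shared with its near copy ANXA8L1. Among the untested annexins, ANXA9 averaged 0.721 FPKM in SsA cells and 1.15 FPKM in DMSO cells, and ANXA10 had 11 counts in DMSO replicate 1 and 0 in every other library, where 0 allows up to 3 counts.

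The S100 genes had the largest median log2 fold change among the member classes before the length correction (0.68) and, over all 6 libraries, no call after it. S100A6, calcyclin, which binds ANXA2, ANXA6 and ANXA11, had 259, 542 and 585 CPM in SsA libraries and 232, 255 and 116 CPM in DMSO libraries. The ranges only just missed each other: SsA replicate 1 lay barely above the highest DMSO library, and the 2 libraries with a high mitochondrial share were the lowest of their groups. Its log2 fold change of 1.20 ± 0.38 (SE; edgeR adjusted p = 0.0324) was the largest among members, and leaving out SsA replicate 2, SsA replicate 3, DMSO replicate 1 or DMSO replicate 3 ended the call (edgeR adjusted p of 0.0961, 0.103, 0.064 and 0.0573). Restricted to the 4 libraries with a low mitochondrial share, it was 1.18 (edgeR adjusted p = 5.18e-07), and between the 2 high ones the log2 ratio was 1.16. By deposited FPKM, S100A6 overlapped between groups, with 200, 473 and 504 in SsA libraries and 228, 251 and 97.8 in DMSO libraries. It was not alone in this among called members. ANXA1, ANXA3, ANXA6, ANXA7, S100A10, CHMP3, CHMP4A, CHMP4B and IST1 overlapped by FPKM too, and the remaining called members did not.

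S100A10, the partner of ANXA2 in its tetramer, had 207, 263 and 270 CPM in SsA libraries and 165, 164 and 132 CPM in DMSO libraries. S100A11, the partner of ANXA1, had 348, 277 and 287 CPM in SsA libraries and 185, 181 and 221 CPM in DMSO libraries. Both were higher in all 3 SsA libraries than in any DMSO library. Their log2 fold changes were 0.68 ± 0.13 for S100A10 (SE; edgeR adjusted p = 0.00476) and 0.63 ± 0.12 for S100A11 (SE; edgeR adjusted p = 0.00397). Length-corrected, S100A10 had 0.011 and S100A11 -0.48, neither called, and S100A6 had 0.17. When just the 4 libraries low in mitochondrial reads were used, the length-corrected S100A11 was called lower, at -0.51 (edgeR adjusted p = 1.26e-05), and S100A6 higher, at 0.15 (edgeR adjusted p = 0.0182). These 3 genes have some of the shortest transcripts of all members, with a median of 673 nt, beside 2865 nt over the members tested.

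**Figure D4:**
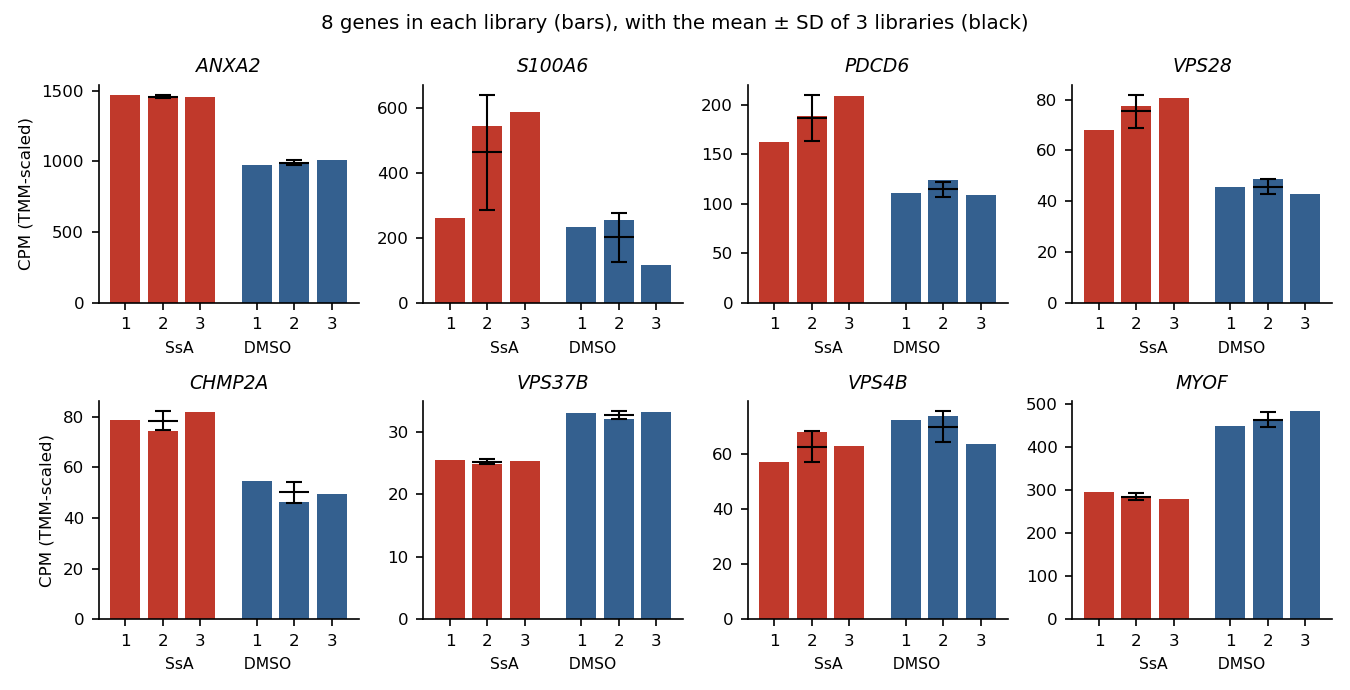
TMM-scaled CPM of 8 members in each of the 6 libraries (bars from 0; SsA red on the left, DMSO blue on the right; black marks are the mean ± SD of 3). ANXA2, VPS28 and CHMP2A are higher and VPS37B and MYOF lower in every SsA library, S100A6 varies most within its groups, and VPS4B overlaps.

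PDCD6 encodes ALG-2, the calcium sensor that starts ESCRT-III assembly at a wound. It had 163, 189 and 209 CPM in SsA libraries and 111, 124 and 109 CPM in DMSO libraries, with every SsA library above every DMSO library. The log2 fold change came to 0.71 ± 0.10 (SE; edgeR adjusted p = 0.00159) and 0.75 after correction with its longest transcript of 3763 nt, also called. With the principal transcript of 1135 nt it was 0.11 and not called (edgeR adjusted p = 0.318), so the corrected value depends on which transcript length is entered. Which transcript these cells used was not tested. PDCD6IP, which encodes ALIX, the scaffold that ALG-2 recruits, had 170, 153 and 151 CPM in SsA libraries and 167, 163 and 194 CPM in DMSO libraries. Its groups overlapped, its log2 fold change stood at -0.15 ± 0.088 (SE; edgeR adjusted p = 0.193), and its length-corrected values turned positive, at 0.20 (not called) and 0.26 (principal transcript, called, edgeR adjusted p = 0.0256). Without length correction PDCD6IP was called lower with the mitochondrial share as a covariate (-0.19, edgeR adjusted p = 0.00311) and in the 4 libraries where that share was low (-0.15, edgeR adjusted p = 0.012).

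ESCRT-I showed both directions: TSG101 and VPS28 rose, VPS37B and VPS37C fell, and VPS37A was not called. TSG101, the ubiquitin- and ALIX-binding core subunit, had 113, 90.1 and 93.4 CPM in SsA libraries and 69.8, 70.5 and 83.7 CPM in DMSO libraries. SsA replicate 1 and DMSO replicate 3 were the highest of their groups, and the groups did not overlap. The log2 fold change came to 0.40 ± 0.11 (SE; edgeR adjusted p = 0.0209), the call ended without DMSO replicate 1 or DMSO replicate 2 (edgeR adjusted p of 0.0783 and 0.0718), and the length-corrected value was 0.081.

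VPS28, the subunit that links ESCRT-I to ESCRT-II, had 68.0, 77.5 and 80.5 CPM in SsA libraries and 45.5, 48.7 and 42.8 CPM in DMSO libraries. The groups stood well apart, at a log2 fold change of 0.72 ± 0.088 (SE; edgeR adjusted p = 0.000771), the largest among the ESCRT members. With the longest transcript of 2337 nt the corrected value was 0.46 and called, and with the principal transcript of 979 nt it was 0.044 and not called.

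The VPS37 paralogs are alternative subunits of the same ESCRT-I position. VPS37B had 25.5, 24.8 and 25.4 CPM in SsA libraries and 33.0, 32.0 and 33.1 CPM in DMSO libraries. SsA libraries were all lower, with little spread, and the log2 fold change of -0.37 ± 0.064 (SE; edgeR adjusted p = 0.00298) was -0.47 and -0.38 after the corrections, called both times. VPS37C had 12.7, 13.7 and 13.7 CPM in SsA libraries and 16.6, 15.9 and 16.9 CPM in DMSO libraries, without overlap. Its log2 fold change of -0.30 ± 0.089 (SE; edgeR adjusted p = 0.0253) was called with both length corrections too, at -0.43 and -0.34. Leaving out any library other than DMSO replicate 3 ended that call before correction, with edgeR adjusted p of 0.0517 to 0.0666. VPS37A, at 30.6, 24.4 and 25.1 CPM in SsA libraries and 23.7, 24.4 and 30.7 CPM in DMSO libraries, overlapped and had a log2 fold change of 0.022 ± 0.14 (SE; edgeR adjusted p = 0.901). Its highest values were those of SsA replicate 1 and DMSO replicate 3. Another annotated transcript on the same strand shares 27.9% of the exon bases of VPS37B, so those reads may be split.

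ESCRT-III genes divided into 6 called higher (CHMP2A, CHMP4A, CHMP5, CHMP4B, CHMP3 and IST1, with CHMP4B, CHMP3 and IST1 negative on the TPM scale) and 6 not called. CHMP2A, a late filament subunit that binds VPS4, lies at chr19:58551566-58555105 (GRCh38) and had 78.8, 74.4 and 81.9 CPM in SsA libraries, against 54.5, 46.3 and 49.5 CPM in DMSO libraries. Even the lowest SsA library was far above the highest DMSO library, with a log2 fold change of 0.65 ± 0.081 (SE; edgeR adjusted p = 0.000848). Its transcript of 1178 nt is short, and the length-corrected value was -0.039.

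CHMP4A and CHMP4B are forms of the main filament subunit. CHMP4A had 45.4, 59.4 and 62.2 CPM in SsA libraries and 37.4, 40.3 and 35.2 CPM in DMSO libraries, a log2 fold change of 0.57 ± 0.13 (SE; edgeR adjusted p = 0.00888). CHMP4B, the form best known from wound repair and cell division, had 71.2, 73.8 and 74.7 CPM in SsA libraries and 56.4, 62.9 and 60.0 CPM in DMSO libraries, a log2 fold change of 0.29 ± 0.066 (SE; edgeR adjusted p = 0.00879). Neither gene overlapped between groups, and neither was called after length correction, at -0.017 for CHMP4A and -0.18 for CHMP4B. On the same strand, AL096870.2 shares 68.8% of the exon bases of CHMP4A and the protein-coding gene AL136295.1 shares 26.7%. The CHMP4A count may therefore hold reads of either.

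CHMP5, the subunit that brings the VPS4 cofactor VTA1 to the filament, had 102, 103 and 106 CPM in SsA libraries and 77.1, 71.3 and 70.2 CPM in DMSO libraries. Its groups were tight and separate, with a log2 fold change of 0.51 ± 0.063 (SE; edgeR adjusted p = 0.000796) and a length-corrected value of 0.14 that was not called. CHMP3, which co-assembles with CHMP2A, had 67.3, 77.4 and 72.6 CPM in SsA libraries and 61.0, 63.4 and 56.5 CPM in DMSO libraries, a log2 fold change of 0.26 ± 0.078 (SE; edgeR adjusted p = 0.026). Leaving out SsA replicate 2, SsA replicate 3, DMSO replicate 1 or DMSO replicate 3 ended that call (edgeR adjusted p of 0.0619 to 0.0977). After length correction CHMP3 had 0.20, not called, with the longest transcript and 0.28, called, with the principal one.

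IST1, an ESCRT-III-like regulator of VPS4, had 124, 127 and 117 CPM in SsA libraries and 108, 111 and 107 CPM in DMSO libraries. The groups were separate by a small margin, and the log2 fold change of 0.18 ± 0.058 (SE; edgeR adjusted p = 0.0347) lost its call when any library other than SsA replicate 3 was left out (edgeR adjusted p of 0.0635 to 0.125). With the length corrections it was 0.38 and 0.45, called both times.

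Among the 6 ESCRT-III genes with no call were the late subunits CHMP1A and CHMP1B, CHMP2B, the remaining CHMP4 form CHMP4C, the early subunit CHMP6, and CHMP7, which starts resealing of the nuclear envelope. Their log2 fold changes were 0.067 for CHMP1A, 0.040 for CHMP1B, -0.013 for CHMP2B, 0.23 for CHMP4C, 0.19 for CHMP6 and 0.11 for CHMP7. CHMP4C and CHMP6 did not overlap between groups although they missed the threshold (edgeR adjusted p of 0.0713 and 0.182). CHMP4C was called when DMSO replicate 1 was left out (edgeR adjusted p = 0.0487). The closest group means among these 6 were those of CHMP2B, at 95.3 ± 1.98 CPM in SsA cells and 96.2 ± 5.80 CPM in DMSO cells (SD, n = 3 each).

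The VPS4 complex, which recycles the filaments, had no call by TMM scaling. VPS4A had 81.5, 93.5 and 90.5 CPM in SsA libraries and 94.0, 102 and 91.2 CPM in DMSO libraries. VPS4B had 57.0, 68.2 and 62.9 CPM in SsA libraries and 72.6, 73.8 and 63.7 CPM in DMSO libraries. Both ATPases overlapped between groups, with log2 fold changes of -0.11 ± 0.078 for VPS4A (SE; edgeR adjusted p = 0.25) and -0.16 ± 0.093 for VPS4B (SE; edgeR adjusted p = 0.181), and VPS4B was called lower without DMSO replicate 3 (edgeR adjusted p = 0.0485). COG8, a gene on the other strand, shares 22.0% of the exon bases of VPS4A, and AC026464.4, on the same strand, shares 21.0%. How reads were divided between them was not tested.

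VTA1, the activator of VPS4, had 52.5, 49.2 and 48.4 CPM in SsA libraries and 39.9, 41.6 and 47.9 CPM in DMSO libraries. Groups were separate by a narrow gap at DMSO replicate 3, and the log2 fold change of 0.21 ± 0.088 was not called (SE; edgeR adjusted p = 0.0763). It was called without DMSO replicate 3 (edgeR adjusted p = 0.0251). With its transcript of 7028 nt, the longest among members, the length-corrected value was 0.65 ± 0.071 and was called (SE; edgeR adjusted p = 0.00112). By deposited FPKM, to which that length correction was not applied, VTA1 averaged 5.58 ± 0.158 in SsA cells and 5.37 ± 0.125 in DMSO cells (SD, n = 3 each).

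Of the calpain genes, CAPNS1, the small regulatory subunit shared by calpain-1 and calpain-2, was called higher. It had 452, 348 and 336 CPM in SsA libraries and 245, 243 and 314 CPM in DMSO libraries, with SsA replicate 1 and DMSO replicate 3 the highest of their groups and no overlap. The log2 fold change came to 0.50 ± 0.15 (SE; edgeR adjusted p = 0.0257), the call ended without DMSO replicate 1 or DMSO replicate 2 (edgeR adjusted p of 0.0895 and 0.0842), and the length-corrected value was 0.12. The catalytic subunits were not called: CAPN1 had a log2 fold change of 0.0056 ± 0.060 and CAPN2 of -0.035 ± 0.055 (SE; edgeR adjusted p of 0.944 and 0.617). CAPN2 had 327, 340 and 341 CPM in SsA libraries and 341, 347 and 344 CPM in DMSO libraries.

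MYOF, myoferlin, a calcium-binding ferlin of membrane fusion, fell most of all members. It lies at chr10:93306429-93482334 (GRCh38) and had 295, 281 and 279 CPM in SsA libraries, against 448, 459 and 483 CPM in DMSO libraries. The SsA libraries were all far below the DMSO libraries. Means were 285 ± 8.60 CPM in SsA cells and 463 ± 17.8 CPM in DMSO cells (SD, n = 3 each), a log2 fold change of -0.70 ± 0.062 (SE; edgeR adjusted p = 0.000237), and the DMSO level was 1.63 times the SsA level. Corrected for length it was -0.30 (edgeR adjusted p = 0.00646), and -0.24 with the principal transcript (edgeR adjusted p = 0.0153), still called. CAV1, the coat protein of caveolae, had 170, 145 and 153 CPM in SsA libraries and 145, 141 and 177 CPM in DMSO libraries, overlapping throughout, with a log2 fold change of 0.016 ± 0.11 (SE; edgeR adjusted p = 0.912).

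With just the 4 libraries whose mitochondrial share was low, a choice made after the data were seen, 24 of the 39 members were called higher and 5 lower. Calls were more common in the whole table too, with 33.3% of all genes tested called higher and 34.5% lower. Members that gained a call there were ANXA8 (0.23), CHMP7 (0.15) and VTA1 (0.23), called higher, and PDCD6IP (-0.15) and VPS4B (-0.19), called lower. With the mitochondrial share as a covariate in all 6 libraries, CHMP4C (0.25) and VTA1 (0.18) gained a call as higher and PDCD6IP as lower. Calls were again more common in the whole table, with 4132 of 11427 genes tested called higher and 4042 lower. In the 4 libraries all 9 tested annexins were called higher, as were 10 of the 20 ESCRT-I, ESCRT-III and VPS4 genes, with 3 of those lower. Between the 2 libraries of high mitochondrial share, 27 of the 39 members had a higher scaled count in SsA replicate 1 than in DMSO replicate 3, as had 50% of all genes tested. The part of the mitochondrial share in these results was not tested beyond these values.

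Other genes of the same machinery were taken from lists of known roles. Their counts stand beside 25.9% of all genes tested called higher and 27.9% called lower. Of 8 tested subunits of ESCRT-0, ESCRT-II and the rest of ESCRT-I, 3 rose and 0 fell, with a median log2 fold change of -0.031. The risers were the ESCRT-I subunit MVB12A (log2 fold change 0.75) and the ESCRT-II subunits VPS25 (0.55) and SNF8 (0.46). Corrected with the longest transcript, MVB12A kept its call (0.46) while VPS25 (-0.17) and SNF8 (0.20) did not. With the principal transcript MVB12A (0.55) and SNF8 (0.30) were called higher and VPS25 (-0.051) was not called. Of 12 tested ESCRT partners, 1 rose and 6 fell. LGALS3, galectin-3, which marks broken endosomal membranes, rose (log2 fold change 0.71), and the ALIX-related phosphatase PTPN23 (-0.87), the ubiquitin ligase NEDD4L (-0.60) and the deubiquitinase USP8 (-0.43) fell most. Corrected with the longest transcript, LGALS3 was not called (0.27), PTPN23 was still lower (-0.63), NEDD4L was not called (-0.050), and USP8 turned to higher (0.63). With the principal transcript NEDD4L was called lower (-0.50, edgeR adjusted p = 0.0086). There LGALS3 (0.13) was again not called, PTPN23 (-0.56) was lower and USP8 (0.65) higher.

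Of 6 tested S100 genes outside the members, 4 rose and 0 fell, led by S100P (log2 fold change 1.28), S100A13 (1.08) and S100A4 (0.93). None of the 6 was called after length correction, beside 15.2% of all genes tested called higher and 16.8% lower. Of 4 tested calpain relatives, CAPN15 alone was called and fell (log2 fold change -1.02, and -0.83 after correction). Of 10 tested genes of caveolae and ferlin partners, 1 rose and 3 fell, beside 25.9% of all genes tested called higher and 27.9% lower. CAVIN3, a caveolar coat subunit, rose (log2 fold change 0.86, and 0.17, not called, after correction), while the giant scaffold genes AHNAK2 (-1.78) and AHNAK (-1.64) and the endosomal recycling ATPase EHD1 (-0.19, and -0.029, not called, after correction) fell. AHNAK protein binds the ANXA2-S100A10 tetramer. AHNAK had 333, 421 and 398 CPM in SsA libraries and 1271, 1303 and 1029 CPM in DMSO libraries, far apart. Its length-corrected value was -0.60 with the longest transcript of 18787 nt and -2.29 with the principal one of 1024 nt, both called. The size of its corrected fall therefore depends on the length entered. AHNAK2 had -0.76 with the longest and -0.74 with the principal transcript, also called.

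Of 17 tested genes of lysosome exocytosis, 3 rose and 1 fell, with 13 not called. Among all genes tested 25.9% were called higher and 27.9% lower. The SNARE protein VAMP8 (log2 fold change 0.93) and the lysosomal proteases CTSB (0.45) and CTSD (0.36) rose, and the small GTPase RAB35 (-0.20) fell. After length correction CTSB (0.51) and RAB35 (-0.31) were still called, and VAMP8 (0.015) and CTSD (0.048) were not.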

How the data were processed

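RNA-seq was done on 6 libraries of cells labelled HepG2, 3 after saikosaponin A and 3 after DMSO; per the labels' protocols, polyadenylated RNA was selected and dUTP strand-marked libraries were amplified by PCR. The submitters' processing notes name GRCh38 as the build and list StringTie 1.3.4d, HISAT2 2.0.4 and cutadapt 1.9 (settings, annotation and counting step not given in the sources used here). Overlapping genes and near copies may therefore share reads. The deposited table holds a whole-number count per gene and library, per the file headers, taken as not normalised. The deposited FPKM, per the file headers, are scaled by length and by library; they set the expression filter (3 or more libraries at 1 or above) and the levels compared between genes. A column name holding SA was taken to mean saikosaponin A, a name without it DMSO, and its number the replicate.

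The 11427 genes passing the filter were tested on counts with edgeR 4.0.16 (R 4.3.3; TMM scaling, quasi-likelihood F test, two-sided, Benjamini-Hochberg over all genes tested, threshold 0.05, biological coefficient of variation 15.3%). The SE of a log2 fold change is its size divided by the square root of F. CPM are counts scaled to a common library size by TMM, and group values are means ± SD over 3 libraries. Total counts ran from 57768359 to 74912492. The SE also reflects the spread between libraries, so members with few counts were not always the least precise. S100A6, with 6484 to 36753 counts per library, had an SE of 0.38, the largest among members tested. VPS37C, with 662 to 1292 counts, had 0.089. The length correction took a trend over log2 length of the longest GENCODE 29 transcript, fitted on the protein-coding genes, off each library as an offset; this version and the principal-transcript version were chosen after the data were seen. DESeq2 1.42.0, limma 3.58.1 on log2(FPKM + 1), log2(FPKM + 0.1) and log2(TPM + 1), other scalings and filters, a replicate block, a mitochondrial covariate and leaving out each library were alternatives.

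The members and gene lists were chosen with earlier results of these data known. All members are described; of each further list, called genes with the largest log2 fold change were named, up to 3 per direction. Upstream sequence is from RefSeq on GRCh38.p14; bases in a GENCODE 29 exon were left out of what is printed but not of the motif counts.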

Additional observations from a re-analysis of the deposited data

How the results depend on the processing

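The counts of members called (21 higher, 3 lower) and of all genes called (6146) lay within 1.5 times of these values with RLE size factors, upper-quartile scaling, DESeq2, no FPKM filter, edgeR's own filter, the length trend fitted on all genes tested and the mitochondrial covariate. Leaving out each library in turn gave 16 to 20 members higher, 2 to 4 lower and 4599 to 6402 genes called. limma on log2(FPKM + 1) and on log2(FPKM + 0.1) called 7 members higher and 4 lower each. Over all 11427 genes tested, these settings called 914 and 886 higher and 3723 and 3699 lower. limma on log2(TPM + 1) called 0 members higher, 1 lower and 2495 genes in all (the median of all genes there was -0.31). Of those genes 49 were higher and 2446 lower. A mean FPKM of at least 5 left 6197 genes and 34 members to test and called 13 higher, 5 lower and 3428 genes. Deviations of same-numbered libraries from their group means correlated at -0.336, 0.287 and -0.351, and SsA replicate 1 went with DMSO replicate 3 (0.55). Those 2 libraries also stood apart in mitochondrial share, so these correlations cannot tell whether same-numbered libraries were paired. The replicate block gave 14 members higher, 2 lower and 4616 genes, and with the all-gene length trend 12 members higher and 2579 genes. The protein-coding length offset, added after the data were seen like the next 3, called 9 members higher and 3656 genes. The principal-transcript length gave 8 higher and 3302 genes, the protein-coding offset with the replicate block 7 higher, 1 lower and 1879 genes, and the same offset in the 4 libraries of low mitochondrial share 14 members higher and 8 lower, with 2803 genes higher and 3251 lower over the whole table. Those 4 libraries without an offset gave 5 lower. On the TPM scale ANXA3 (-0.075), ANXA6 (-0.0068), ANXA7 (-0.079), ANXA11 (-0.077), CHMP3 (-0.10), CHMP4B (-0.069) and IST1 (-0.18) reversed. With the protein-coding offset CHMP2A (-0.039), CHMP4A (-0.017), CHMP4B (-0.18) and S100A11 (-0.48) reversed, and with the replicate block added CHMP2A (-0.037), CHMP4A (-0.025), CHMP4B (-0.18) and S100A11 (-0.48). In the 4 libraries, that offset reversed CAPN1 (-0.14), CHMP2A (-0.076), CHMP4B (-0.18), S100A10 (-0.0011), S100A11 (-0.51) and PDCD6IP (0.20). The principal-transcript offset reversed ANXA3 (-0.077), CHMP4B (-0.076), S100A11 (-0.34) and PDCD6IP (0.26). Apart from the smaller numbers of genes or libraries in some settings, the cause of these changes was not tested. ANXA9 and ANXA10 were below the FPKM filter; with no filter all 41 members were tested, and with edgeR's own filter 40.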

Other observations

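Near copies of members were also listed with counts. The processed copy ANXA2P2 had 76.4, 65.6 and 61.8 CPM in SsA libraries and 46.0, 47.1 and 49.7 CPM in DMSO libraries, a log2 fold change of 0.51 (edgeR adjusted p = 0.00358), near the 0.56 of ANXA2 itself. ANXA8L1, the near copy of ANXA8, had 31.2, 26.6 and 24.4 CPM in SsA libraries and 24.2, 22.5 and 24.2 CPM in DMSO libraries, a log2 fold change of 0.21 that was not called (edgeR adjusted p = 0.126). How reads were divided between a gene and its copy was not tested.

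The readthrough gene PDCD6-AHRR, which follows PDCD6 on the same strand, had 2222 counts in SsA replicate 3, 1 count in DMSO replicate 2 and 0 in the other 4 libraries. PDCD6 itself was highest in SsA replicate 3 among all 6 libraries, at 209 CPM.

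The ESCRT-I subunit UBAP1, which specialises the complex for endosome sorting, had 43.5, 43.0 and 41.1 CPM in SsA libraries and 46.9, 46.9 and 53.6 CPM in DMSO libraries. Every SsA library was lower than every DMSO library, and the log2 fold change of -0.21 missed the threshold (edgeR adjusted p = 0.0578) and was called lower after length correction, at -0.37 (edgeR adjusted p = 0.0163). UBAP1 is named here after its values were seen, as the ESCRT-I subunit nearest the threshold.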
